A study of Mus musculus with 12 samples.

Results

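Interferon-inducible GTPases of 2 mouse families were followed here: the immunity-related GTPases Igtp, Irgm1, Irgm2, Iigp1, Tgtp1 and Ifi47 (IRG family) and the guanylate-binding proteins Gbp2, Gbp3 and Gbp6 (GBP family), 9 genes in all. They were chosen by name, by taking every array probe whose platform gene symbol was one of the 9, and 14 of the 25697 probes were found, for 8 genes. No probe carried the symbol or gene number of Gbp6, which was not analysed here. A probe was called above background on an array where its detection p was under 0.05, and it was tested where this held on at least 2 of the 12 arrays. By that filter 10 of the 14 probes were tested among 12974, and 6 of the 9 genes (Igtp, Irgm1, Irgm2, Ifi47, Gbp2 and Gbp3) among 8891. Both Iigp1 probes, the Tgtp1 probe and 1 of 3 Gbp2 probes were above background on 0 of 12 arrays.

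As background, IRG and GBP proteins are GTPases that cells make in large amounts after they sense interferon, and in mice they are known for attacking the vacuoles in which bacteria and parasites hide. Irgm1, Irgm2 and Igtp (also named Irgm3) are the regulators of the IRG family, which sit on the cell's own membranes and hold the effector IRG proteins, such as Iigp1, Tgtp1 and Ifi47, inactive there. Gbp2, Gbp3 and Gbp6 belong to a related family that coats vacuoles and bacteria. Interferon gamma signals through the kinases Jak1 and Jak2 to promoter sites named GAS, while type I interferons signal through Jak1 and Tyk2 to sites named ISRE, which a complex with Stat2 and Irf9 binds.

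Total RNA came from mouse embryonic fibroblasts of female C57BL/6 embryos, immortalized with SV-40 large T, of which 1 clone had wildtype β1 integrin (WT) and the other the β1 YYFF mutation (YYFF). Cells with the mutation cannot complete cytokinesis on a matrix that only β1 integrin binds, and the study induced such failures by plating both clones overnight on laminin in serum-free hybridoma medium, with normal medium given on the next day. This was done 0, 4 or 8 times (L0, L4 and L8) before growth on plastic, and each of the 6 groups (WT L0, WT L4, WT L8, YYFF L0, YYFF L4 and YYFF L8) was measured on 2 bead arrays. The series title names aneuploidy as its subject. Each genotype is 1 clone, so a difference between genotypes cannot be told apart from one between clones, and the number of passages cannot be told apart from time in culture. All groups share the strain, the large T antigen and the growth medium. The labels do not say that the 2 samples of a group were separate cultures, so a p-value here covers no more than the spread of these arrays, and that spread may be technical. The embryonic stage label differs from sample to sample and was not used.

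Between 40.4% and 45.8% of the probes were above background on each array, and replicate arrays correlated at 0.987 to 0.994 across genes. Itgb1, the mutated gene, was above background on all 12 arrays with group means of 8.31 to 9.11 log2 units, and a level cannot check a point mutation. Of 9 fibroblast markers on the array, 7 or 8 were above background on each array, and Thy1 on 0 of 12. Of 9 leukocyte markers, 7 were above background on 0 of 12 arrays, the defining markers Ptprc, Adgre1 and Itgam among them. The other two were Cd14, on all 12 arrays, and Cd3e, on 3.

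In both clones Igtp, Irgm2, Gbp2 and Gbp3 were high before laminin passaging and lower after 8 passages, but the clones differed in when the level fell. In the WT clone most of the fall of these 4 genes lay between 4 and 8 passages, whereas in the YYFF clone it lay between 0 and 4, with no change that passed the test from 4 to 8. The Irgm1 probes did not all follow this course and are described below. From L0 to L8 the log2 changes of Igtp, Irgm2 and Gbp3 lay between -4.78 and -3.14, those of Gbp2 were -2.22 in WT and -2.25 in YYFF cells, and those of the brightest Irgm1 probe -0.98 and -0.96. Signals below are normalized log2 values, given for replicates 1 and 2 in that order, and changes are limma estimates with their standard errors (SE) and p-values adjusted over all 8891 genes. In RNA from whole cultures, fewer cells that make a transcript and less RNA per cell cannot be told apart.

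Igtp, a regulator that keeps effector IRG proteins off host membranes and lipid droplets, had log2 signals of 10.25 and 9.98 in WT L0, 9.69 and 9.49 in WT L4, and 5.54 and 5.47 in WT L8. In the YYFF clone they were 10.02 and 9.87 at L0, 5.68 and 5.48 at L4, and 5.70 and 5.36 at L8. The 6 arrays of WT L0, WT L4 and YYFF L0 stood far above the other 6, and in each of WT L8, YYFF L4 and YYFF L8 only 1 of 2 arrays was above background. Igtp fell 24.4-fold from L0 to L8 in WT cells (-4.61 ± 0.15 log2 units, SE, adjusted p = 1.47e-07), and 20.6-fold from L0 to L4 in YYFF cells (-4.36 ± 0.15, adjusted p = 1.24e-07). The groups ranked WT L0, YYFF L0, WT L4, YYFF L4, YYFF L8 and WT L8. Values overlapped between WT L0 and YYFF L0, and among the 3 lowest groups.

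Irgm2, the second regulator of this kind, lies next to Igtp on chromosome 11. Its log2 signals were 10.18 and 10.16 in WT L0, 9.64 and 9.72 in WT L4, and 6.13 and 6.06 in WT L8. In YYFF cells they were 10.45 and 10.40 at L0, 6.81 and 6.30 at L4, and 6.83 and 6.81 at L8. All 12 arrays were above background, and again the L0 arrays and those of WT L4 stood above the rest. Irgm2 fell 16.9-fold from L0 to L8 in WT cells (-4.08 ± 0.15, adjusted p = 2.32e-07) and 14.6-fold from L0 to L4 in YYFF cells (-3.87 ± 0.15, adjusted p = 2.01e-07). At L8 the YYFF arrays were above both WT arrays, and YYFF cells were 1.66-fold higher (0.73 ± 0.15, adjusted p = 0.00449), a call that median scaling of the arrays ended (adjusted p = 0.0566, with a range of 0.00233 to 0.0566 over all settings tried).

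Irgm1, the regulator that mice need to resist mycobacteria, has 3 tested probes, and they gave different sizes of change. The brightest had deposited intensities, before normalization, of 11204 and 8330 in WT L0, 5719 and 5520 in WT L4, and 4359 and 4934 in WT L8. In YYFF cells they were 8953 and 7540 at L0, 5786 and 6417 at L4, and 3474 and 5434 at L8. The L0 arrays were above all others in both clones, and after normalization the L4 and L8 groups of the clones overlapped. It fell 1.97-fold in WT cells (-0.98 ± 0.19, adjusted p = 0.00357) and 1.94-fold in YYFF cells (-0.96 ± 0.19, adjusted p = 0.00377) from L0 to L8. The second probe had log2 signals of 10.68 and 10.67 in WT L0, 9.55 and 9.67 in WT L4, and 7.50 and 7.84 in WT L8, and 10.52 and 10.51, 7.94 and 7.73, and 7.40 and 7.90 in YYFF L0, L4 and L8. On this probe the WT L4 arrays lay between the L0 arrays and all others, and YYFF L4, WT L8 and YYFF L8 overlapped.

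In a fit of all 12974 probes, the second Irgm1 probe fell 8.02-fold from L0 to L8 in WT cells (-3.00 ± 0.18, adjusted p = 5.14e-06) and 6.41-fold from L0 to L4 in YYFF cells (-2.68 ± 0.18, adjusted p = 6.2e-06). At L4 it was 3.43-fold lower in YYFF than in WT cells (-1.78 ± 0.18, adjusted p = 7.2e-05), where the brightest probe differed by -0.00 ± 0.19 (adjusted p = 1). The third and dimmest probe ranged from 6.37 to 6.88 log2 units on the L0 arrays and was not above background on any of the 4 YYFF L4 and L8 arrays. It fell by 1.32 ± 0.25 in WT L8 (adjusted p = 0.004), where 1 of 2 arrays was above background, and its mean in YYFF L4 was lower than in YYFF L0 (adjusted p = 0.00255). All 3 probes carry the same transcript in the platform annotation, and why they differ was not tested.

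**Figure D1:**
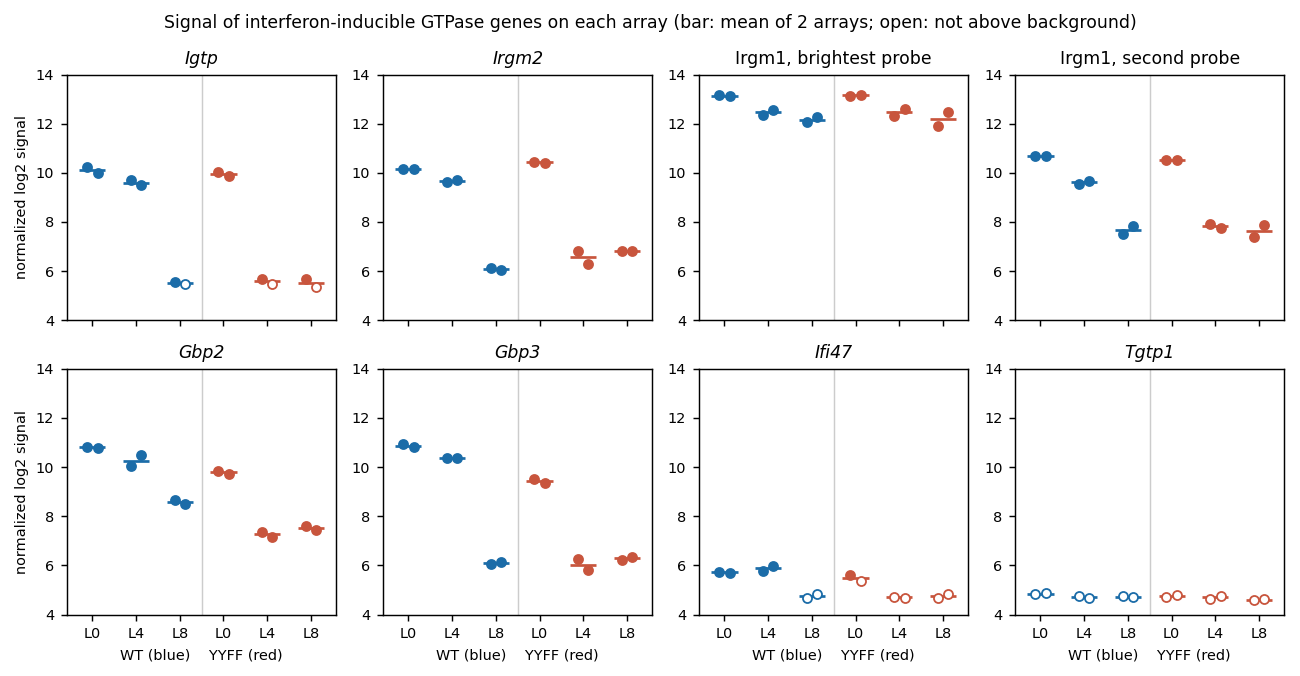
Normalized log2 signal (vertical axis) of interferon-inducible GTPase genes on each array in the 6 groups (horizontal axis; WT blue, YYFF red), with bars at the mean of 2 arrays and open circles where the probe was not above background. Igtp, Irgm2, Gbp3 and the second Irgm1 probe are high in L0 and WT L4 and low in WT L8, YYFF L4 and YYFF L8, while Tgtp1 is not above background anywhere.

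The effector members of the IRG family were near or below the background. Ifi47 had log2 signals of 5.75 and 5.69 in WT L0, 5.78 and 5.99 in WT L4, and 4.69 and 4.85 in WT L8, and 5.59 and 5.38, 4.70 and 4.69, and 4.67 and 4.82 in YYFF L0, L4 and L8. It was above background on 5 arrays, those of WT L0 and WT L4 and replicate 1 of YYFF L0. Against the lowest signal that was above background on each dim array, Ifi47 was at least 1.16-fold lower in WT L8 than in WT L0 (adjusted p = 4e-04) and at least 1.21-fold lower in YYFF L4 than in WT L4 (adjusted p = 7.2e-05). Since it passed the filter through the groups where it was high, its lower level elsewhere was in part fixed by that filter, and the counts of tested genes given below are descriptions. Tgtp1 ranged from 4.59 to 4.86 log2 units and Iigp1 was likewise not well above background, so no change can be read for either. Tgtp1 has a near-identical neighbour, Tgtp2, and the probe may not separate them.

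Gbp2, a guanylate-binding protein that gathers on vacuoles of Toxoplasma, had log2 signals of 10.83 and 10.78 in WT L0, 10.04 and 10.48 in WT L4, and 8.65 and 8.51 in WT L8. In YYFF cells they were 9.86 and 9.72 at L0, 7.38 and 7.17 at L4, and 7.62 and 7.46 at L8. Unlike Igtp and Irgm2, each YYFF group lay below its WT partner with no overlap, already before any laminin passage. Gbp2 fell 4.67-fold in WT L8 (-2.22 ± 0.15, adjusted p = 1.08e-05) and 5.72-fold in YYFF L4 (-2.52 ± 0.15, adjusted p = 3.2e-06), each against its L0. YYFF cells were 2.02-fold lower at L0 (-1.02 ± 0.15, adjusted p = 0.00135) and 2.06-fold lower at L8 (-1.05 ± 0.15, adjusted p = 0.000688). A dimmer Gbp2 probe had means of 7.16 in WT L0, 6.51 in WT L4 and 5.47 in YYFF L0, the last with 1 of 2 arrays above background, and was above background on 0 arrays of WT L8, YYFF L4 and YYFF L8, so no size of change can be read from it there.

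Gbp3, of the same chromosome 3 cluster, had log2 signals of 10.94 and 10.80 in WT L0, 10.38 and 10.38 in WT L4, and 6.04 and 6.14 in WT L8. In YYFF cells they were 9.51 and 9.35 at L0, 6.25 and 5.80 at L4, and 6.22 and 6.35 at L8. The YYFF L0 arrays were below every WT L0 and WT L4 array, WT L8 and YYFF L4 overlapped, and both YYFF L8 arrays lay just above both WT L8 arrays. Gbp3 fell 27.5-fold in WT L8 (-4.78 ± 0.15, adjusted p = 1.23e-07) and 10.6-fold in YYFF L4 (-3.40 ± 0.15, adjusted p = 4.19e-07). Its second probe went from a mean of 10.92 log2 units in WT L0 to 5.41 in WT L8 (adjusted p = 2.23e-07), where neither array was above background, so the lower mean is an upper limit.

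The regions before the transcription starts are printed as a description of the members. Most of the tested members hold, in a short stretch, the letters that interferon-driven factors bind. Whether these letters had a part in the changes was not tested. The sequences are RefSeq's on build GRCm38.p6, 250 bases ending just before an annotated start, read 5′ to 3′ on the gene's strand, and capitals mark matches to the core of an ISRE, which is GAAA, any 2 bases and GAAA again, and to a GAS, TTCNNNGAA, both searched on both strands. A window was given for 7 of the 9 genes, 8 windows in all. The 6 below are those with a match.
Igtp (chr11:58199306-58199555, plus strand): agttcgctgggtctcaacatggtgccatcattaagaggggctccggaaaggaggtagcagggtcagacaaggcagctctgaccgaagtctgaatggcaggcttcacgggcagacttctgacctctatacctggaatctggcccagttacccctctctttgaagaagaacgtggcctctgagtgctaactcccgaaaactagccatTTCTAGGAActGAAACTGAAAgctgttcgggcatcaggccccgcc
Irgm2 (chr11:58214727-58214976, plus strand): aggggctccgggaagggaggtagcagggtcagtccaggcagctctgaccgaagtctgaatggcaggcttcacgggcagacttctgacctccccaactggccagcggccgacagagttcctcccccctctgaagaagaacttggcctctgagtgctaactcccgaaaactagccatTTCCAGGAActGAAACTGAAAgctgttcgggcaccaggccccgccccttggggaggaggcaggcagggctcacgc
Tgtp1 (chr11:48992247-48992496, minus strand): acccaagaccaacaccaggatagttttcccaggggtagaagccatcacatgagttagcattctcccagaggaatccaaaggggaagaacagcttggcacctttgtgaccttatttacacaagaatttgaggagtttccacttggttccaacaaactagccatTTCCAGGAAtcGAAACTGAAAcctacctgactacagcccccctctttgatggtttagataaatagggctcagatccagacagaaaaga
Irgm1 (chr11:48871421-48871670, minus strand): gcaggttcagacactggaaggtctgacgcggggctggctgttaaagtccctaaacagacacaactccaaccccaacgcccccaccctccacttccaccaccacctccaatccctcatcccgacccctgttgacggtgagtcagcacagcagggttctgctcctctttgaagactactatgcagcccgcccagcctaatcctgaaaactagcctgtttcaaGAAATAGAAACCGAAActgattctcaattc
Gbp2 (chr3:142620413-142620662, plus strand): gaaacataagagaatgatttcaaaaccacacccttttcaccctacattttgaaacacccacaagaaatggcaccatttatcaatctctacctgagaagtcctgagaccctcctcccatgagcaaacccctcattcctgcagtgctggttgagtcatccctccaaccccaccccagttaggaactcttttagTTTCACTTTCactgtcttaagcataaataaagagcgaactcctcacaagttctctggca
Gbp3, first window (chr3:142559794-142560043, plus strand): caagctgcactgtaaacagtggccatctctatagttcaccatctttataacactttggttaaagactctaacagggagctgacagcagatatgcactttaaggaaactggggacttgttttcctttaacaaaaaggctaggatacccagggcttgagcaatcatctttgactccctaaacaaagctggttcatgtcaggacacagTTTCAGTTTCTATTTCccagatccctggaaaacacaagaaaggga

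In Igtp the GAS match (positions -45 to -37 from the start) and the ISRE core (-34 to -25) are 2 bases apart, and the same arrangement stands at -75 to -67 and -64 to -55 in Irgm2 and at -88 to -80 and -77 to -68 in Tgtp1. This arrangement, a GAS, 2 bases and an ISRE core, occurs in 5 of 32851 promoter stretches of this length (0.0152%), those of Igtp, Irgm2, Tgtp1, Tgtp2 and Gm12185. The arrangement counted is the one seen in these member windows, so the count is a description and no test. Some of these stretches belong to closely related genes and are not independent. Irgm1 has 2 overlapping ISRE cores (-30 to -21 and -24 to -15) and no GAS match. Gbp2 (-59 to -50) and the first Gbp3 window (-45 to -36 and -39 to -30) have the ISRE core on the opposite strand, and no GAS match. Neither motif was found in the Ifi47 window or the second Gbp3 window.

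The ISRE core is held by 2.98% of all such stretches and the GAS letters by 7.02%, so the GAS letters alone are common. Tgtp1, with the same pair of motifs as Igtp and Irgm2, was not above background on any array, so this match did not go with a measured level. The upstream stretches of Igtp and Irgm2 were the most alike, with 68.9% identical positions in a pairwise alignment against 44.9% to 55.4% for the other 27 pairs. A match describes letters in a window and does not show that a factor bound there in these cells.

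**Figure D2:**
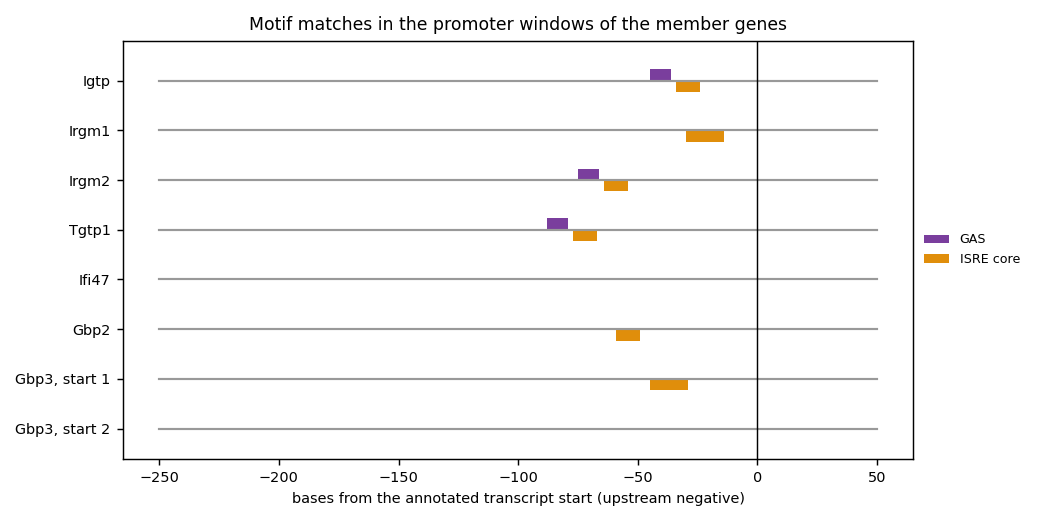
Positions of the GAS (purple) and ISRE core (orange) matches in the 8 promoter windows, with distance from the annotated transcript start in bases on the horizontal axis and the start as a vertical line. Every match lies between -88 and -15, and Igtp, Irgm2 and Tgtp1 show both motifs side by side.

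The first comparison asks what 4 laminin passages changed in the WT clone, whose β1 integrin is wildtype. The changes were small: -0.52 ± 0.15 log2 units for Igtp (adjusted p = 0.0495), -0.68 ± 0.19 for Irgm1 (adjusted p = 0.0411) and -0.54 ± 0.15 for Gbp2 (adjusted p = 0.0442) passed the test. Irgm2 (-0.48 ± 0.15, adjusted p = 0.0601), Gbp3 (-0.49 ± 0.15, adjusted p = 0.0575) and Ifi47 (0.17 ± 0.12, adjusted p = 0.41) did not. Thus 3 of the 6 tested genes were lower, where 7.99% of all tested genes were. All arrays of WT L4 were below those of WT L0 for Igtp, Irgm1, Irgm2, Gbp2 and Gbp3. The share of all tested genes with such a separation was not computed, so this is a description and adds nothing to the calls. The calls are at the edge of the threshold: without WT L0 replicate 1, WT L0 replicate 2 or WT L4 replicate 1 limma called 0 of the 6 (3, 5 and 4 had an unadjusted p under 0.05), and without WT L4 replicate 2 it called 1.

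After 8 passages the WT clone had lost most of the signal of Igtp, Irgm2, Gbp2 and Gbp3, while the brightest Irgm1 probe fell 1.97-fold. Against WT L0, 6 of the 6 tested genes were lower and 17.7% of all tested genes were. For Igtp, Gbp3, Irgm2 and Gbp2 the larger share of the fall came after the fourth passage. From L4 to L8 Igtp fell by 4.08 ± 0.15 log2 units (adjusted p = 7.23e-07). The changes were -4.29 ± 0.15 for Gbp3 (adjusted p = 4.8e-07), -3.59 ± 0.15 for Irgm2 (adjusted p = 1.18e-06) and -1.68 ± 0.15 for Gbp2 (adjusted p = 0.000157). Ifi47 was at least 1.3-fold lower (adjusted p = 0.000386). The brightest Irgm1 probe changed by -0.30 ± 0.19 (adjusted p = 0.318), and the second by -1.94 ± 0.18 (adjusted p = 0.00018 over all probes). In this step 5 of the 6 tested genes were lower, and 8.86% of all.

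In the YYFF clone, which carries the mutation, 4 passages were followed by lower levels. All 6 tested genes were lower in L4 than in L0 (17.2% of all tested genes were), from -0.69 ± 0.19 for the brightest Irgm1 probe (adjusted p = 0.0209) to the falls of Gbp2, Gbp3, Irgm2 and Igtp given above. Ifi47 was lower too (adjusted p = 0.00103), with no fold given, since YYFF L4 was not above background and 1 of 2 YYFF L0 arrays was. The Irgm1 call was lost without YYFF L0 replicate 1 (change of -0.72), without YYFF L0 replicate 2 (-0.66) and without YYFF L4 replicate 1 (-0.56). Under median scaling it was lost too (adjusted p = 0.19), the highest value of all settings. The lowest, 4.84e-06, came with the second Irgm1 probe in place of the brightest, a setting added after the data were seen. From L0 to L8, 6 of the 6 were again lower (19.3% of all), with changes of -4.41 ± 0.15 for Igtp, -3.60 ± 0.15 for Irgm2, -3.14 ± 0.15 for Gbp3, -2.25 ± 0.15 for Gbp2 and -0.96 ± 0.19 for Irgm1, while Ifi47 was lower (adjusted p = 0.00133) with YYFF L8 below background. Between L4 and L8, limma called 0 of 6 (1.44% of all genes were called), with 0 at an unadjusted p under 0.05 and changes from -0.27 to 0.26. Igtp, Irgm2, Gbp3 and Ifi47 were already dim in YYFF L4, which left little room for a further fall.

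**Figure D3:**
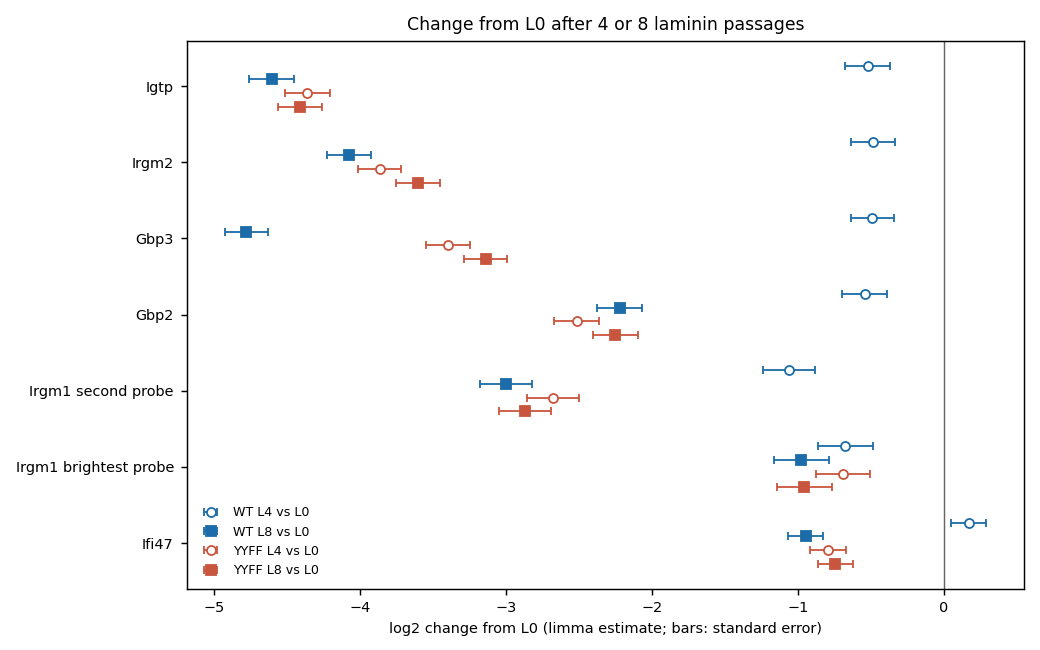
Change from L0 (log2 units, horizontal axis) for each tested gene and for the second Irgm1 probe, in WT (blue) and YYFF (red) cells after 4 (open circles) and 8 (filled squares) laminin passages; bars are standard errors. For Igtp, Irgm2 and Gbp3 the WT L4 points lie near -0.5, apart from the other 3, which lie between -3.14 and -4.78.

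Comparing the clones at each passage number showed the same step from the other side. Before laminin, 2 of the 6 tested genes were lower in YYFF cells (12.2% of all tested genes were lower), namely Gbp2 and Gbp3 (2.72-fold, -1.44 ± 0.15, adjusted p = 0.00014). Igtp (-0.17 ± 0.15, adjusted p = 0.455), Irgm2 (0.26 ± 0.15, adjusted p = 0.245), Irgm1 (0.01 ± 0.19, adjusted p = 0.967) and Ifi47 (-0.23 ± 0.12, adjusted p = 0.203) did not pass. After 4 passages 5 of the 6 were lower in YYFF cells (19.7% of all), with Gbp3 20.4-fold lower (-4.35 ± 0.15, adjusted p = 1.01e-07), Igtp 16.1-fold (-4.01 ± 0.15, adjusted p = 1.88e-07), Irgm2 8.73-fold (-3.13 ± 0.15, adjusted p = 6.67e-07) and Gbp2 7.93-fold (-2.99 ± 0.15, adjusted p = 9.74e-07). After 8 passages Gbp2 was still lower (19.8% of all tested genes were lower) and Irgm2 was higher (17.2% were higher). Igtp differed there by 0.02 ± 0.15 (adjusted p = 0.93) and Gbp3 by 0.20 ± 0.15 (adjusted p = 0.349).

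**Figure D4:**
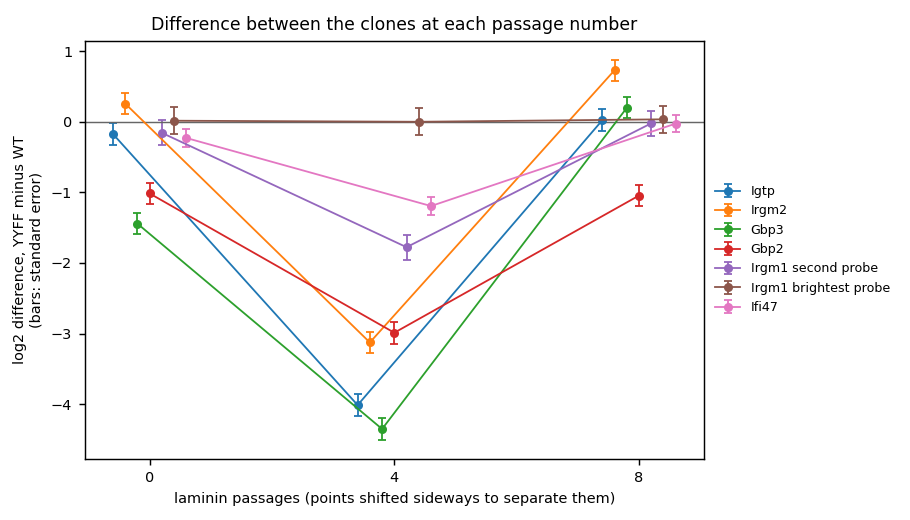
Difference between the clones (YYFF minus WT, log2 units, vertical axis) at 0, 4 and 8 laminin passages (horizontal axis; points are shifted sideways); bars are standard errors. The difference is deepest at 4 passages for Gbp3 (-4.35), Igtp (-4.01), Irgm2 (-3.13) and Gbp2 (-2.99), and the brightest Irgm1 probe stays near 0.

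The difference between the clones in their response was tested as an interaction in the same fit. For the step from L0 to L4, 5 of the 6 tested genes fell further in YYFF cells (13.4% of all tested genes did): Igtp by a further 3.84 ± 0.22 log2 units (-3.84, adjusted p = 3.92e-06), and Irgm2, Gbp3, Gbp2 and Ifi47 by less. The brightest Irgm1 probe did not pass (-0.01 ± 0.27, adjusted p = 0.975), but the second did over all probes (-1.62 ± 0.25, adjusted p = 0.0019). For the step from L0 to L8 only 1 of the 6 passed, where 14.4% of all tested genes had a positive interaction. Gbp3 fell less in YYFF cells, by 1.64 ± 0.21 (adjusted p = 0.000453). It started lower in YYFF L0 (-1.44 against WT L0) and ended dim in both clones (means of 6.09 in WT L8 and 6.29 in YYFF L8). A weaker response cannot be told apart from a lower start that ended at a similar dim level. For the step from L4 to L8, 5 of the 6 had a positive interaction (4.35% of all). Ifi47 was above background on 0 YYFF L4 and YYFF L8 arrays and Igtp on 1 of 2 in each. A further fall of Ifi47 in YYFF cells could thus not be measured in that step, and one of Igtp only in part. Irgm2 and Gbp3 were above background but dim in YYFF L4 (means of 6.56 and 6.03 log2 units). Falls as large as those in WT cells (-3.59 and -4.29) could not have shown there, so their positive terms were in part fixed. These contrasts share their control arrays, so their values are set side by side and are not independent of each other.

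The wider families held few other genes that could be read. Of 14 other IRG and GBP family genes with a probe, 4 were tested: Gvin1, Gbp7, Irgq and 9930111J21Rik2. Gbp2b, Gbp4, Gbp5, Gbp8, Gbp9, Gbp10, Gbp11, Gm4841 and Gm4951 were not above background on any array, and Irgc1 was on 1.

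Gvin1, a very large interferon-induced GTPase, departed from the pattern of Igtp. Its log2 signals were 9.48 and 9.21 in WT L0, 7.91 and 8.17 in WT L4, and 4.88 and 4.65 in WT L8, where neither array was above background, and 10.56 and 10.48, 8.93 and 8.92, and 8.61 and 8.26 in YYFF L0, L4 and L8. It thus stayed well above background in YYFF cells after 8 passages. It fell by 1.59 ± 0.16 in YYFF L4 (adjusted p = 7.12e-05) and by 2.09 ± 0.16 in YYFF L8 (adjusted p = 1.08e-05), and was at least 14.2-fold lower in WT L8 than in WT L0 (adjusted p = 1.71e-07). At L8 it was at least 7.59-fold higher in YYFF than in WT cells (adjusted p = 3.53e-07).

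Gbp7 was above background on the 4 L0 arrays alone, and was at least 1.53-fold lower in WT L8 (adjusted p = 0.000406) and at least 1.18-fold lower in YYFF L8 (adjusted p = 0.000411). The gene 9930111J21Rik2 went the other way: it was above background only in YYFF L4 (6.23 and 6.48 log2 units) and YYFF L8 (6.72 and 6.83), at least 2.53-fold above YYFF L0 at L8 (adjusted p = 4.11e-06). Gbp7 and 9930111J21Rik2 passed the filter only through the groups where they were high. The direction of their differences was thus in part fixed by that filter, and their p-values are descriptions. Irgq, an IRG relative not known to be induced by interferon, was above background on all 12 arrays. It was lower in WT L4 than in WT L0 (-0.57 ± 0.16, adjusted p = 0.0419) and higher in WT L8 than in WT L4 (0.57 ± 0.16, adjusted p = 0.0371), and its changes from L0 were -0.01 ± 0.16 in WT L8 (adjusted p = 0.98) and -0.11 ± 0.16 in YYFF L8 (adjusted p = 0.63). A dimmer Irgq probe was 0.88 ± 0.20 log2 units higher in WT L8 than in WT L0 (adjusted p = 0.00992 over all probes), so its probes disagree.

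Among the genes that carry interferon signals to these GTPases, the ligands could hardly be read. Of 10 interferon genes with a probe, among them Ifnb1 and Ifng, 9 were above background on 0 of 12 arrays. Ifne was on 3 arrays, both of WT L4 and 1 of YYFF L4, and no contrast of it passed the test. Of 9 receptors and kinases, 8 were tested (Ifnar1 was not above background). In WT L8 2 of them were higher (18.4% of all tested genes were), Il10rb (1.64 ± 0.26, adjusted p = 0.00128) and Tyk2 (0.54 ± 0.14, adjusted p = 0.0145). In YYFF L4 0 of the 8 were lower and 1 was higher, where 17.2% and 14.4% of all tested genes were. In YYFF L8 the receptor chains Ifnar2 (-0.73 ± 0.19, adjusted p = 0.0147) and Ifngr1 (-0.72 ± 0.17, adjusted p = 0.00872) were lower (19.3% of all were). Jak1 and Jak2 did not pass in any step from L0.

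The transcription factors split. Irf9, the DNA-binding partner of Stat2, had mean log2 levels of 10.79, 10.61 and 8.54 in WT cells at L0, L4 and L8 and of 10.73, 7.77 and 7.70 in YYFF cells, high in the same 3 groups as Igtp. It changed by -0.18 ± 0.11 in WT L4 (adjusted p = 0.346) and fell in WT L8 (-2.25 ± 0.11, adjusted p = 1.78e-06) and YYFF L4 (-2.96 ± 0.11, adjusted p = 2.01e-07). Stat2 fell in all 4 comparisons with L0, with changes of -1.13 ± 0.26 in WT L4 (adjusted p = 0.0194), -2.50 ± 0.26 in WT L8, -1.41 ± 0.26 in YYFF L4 and -1.17 ± 0.26 in YYFF L8 (adjusted p = 0.00737). Irf1, which interferon gamma induces, fell by 0.87 ± 0.10 in YYFF L4 (adjusted p = 0.000141) and changed by 0.11 ± 0.10 in WT L8 (adjusted p = 0.405).

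Of 8 tested factors, 4 were lower in WT L8 (Irf7, Irf9, Nlrc5 and Stat2) and 1 was higher, and 7 were lower in YYFF L4. Over all tested genes 17.7% were lower and 18.4% higher in WT L8, and 17.2% lower in YYFF L4. Irf7 was at least 2.6-fold lower in WT L8 and Nlrc5, the activator of MHC class I genes, at least 4.41-fold lower. Irf7 and Nlrc5 were above background only on arrays of WT L0, WT L4 and YYFF L0. They passed the filter through the groups where they were high, so their direction was in part fixed and the counts that hold them are descriptions. Of 6 tested inhibitors of interferon signalling, 2 were lower in WT L8 and 1 was higher, shares that over all tested genes were 17.7% and 18.4%. Usp18, which is itself induced by interferon and blocks the type I receptor, fell by 6.80 in WT L8 (adjusted p = 3.3e-09) and by 4.66 in YYFF L4 (adjusted p = 3.05e-08).

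**Figure D5:**
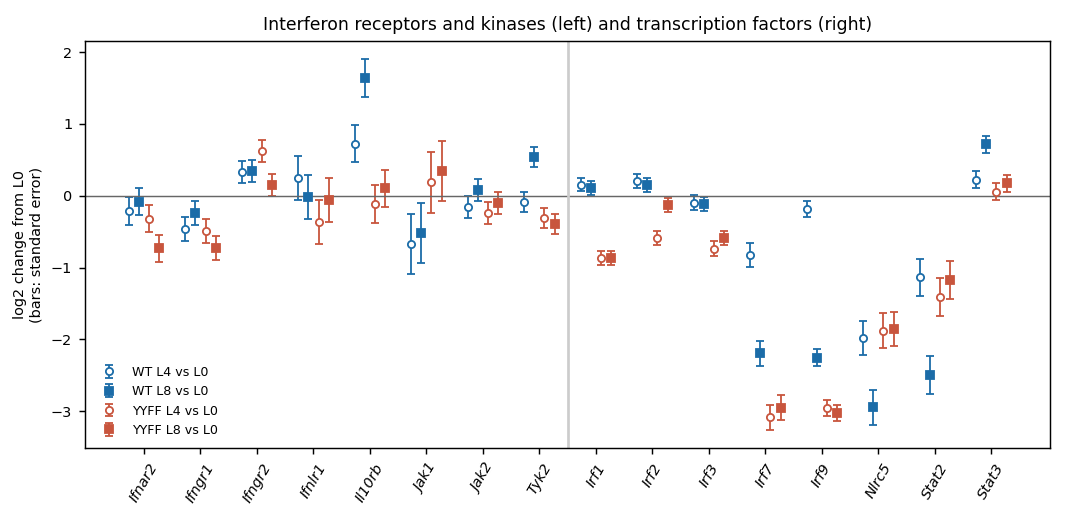
Change from L0 (log2 units, vertical axis) of the tested interferon receptors and kinases (left) and transcription factors (right) in WT (blue) and YYFF (red) cells after 4 (open circles) and 8 (filled squares) laminin passages; bars are standard errors. Irf9 changes by -2.25 in WT L8 and -2.96 in YYFF L4 but by -0.18 in WT L4, while Jak2 lies near 0 throughout.

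Antiviral genes of the type I response were also mostly lower than at L0. Of 15 tested, 10 were lower in WT L4 and 14 in WT L8, and in YYFF L4 and YYFF L8 14 were lower and 1 was higher. Over all tested genes 7.99%, 17.7%, 17.2% and 19.3% were lower in these comparisons, and 14.4% and 17.1% higher in the YYFF ones. The antiviral genes had medians of -3.75 in WT L8 and -2.40 in YYFF L4 (-3.46 and -1.93 with genes below background at their bounds), where the medians of all tested genes were -0.00 and 0.02. In WT L8, 7 of the 15 gave only a bound. Between the clones at L8 they parted from the GTPases. There 9 of the 15 were higher and 2 lower in YYFF cells, where 17.2% and 19.8% of all tested genes were. Of the 6 tested members, 1 was higher and 1 lower. Examples are Isg15, a ubiquitin-like modifier (-6.13 in WT L8 and -3.34 in YYFF L8), Oasl2 (-6.02 and -4.10), Bst2, which tethers budding virus (-4.87 and -3.29), and Oas1g (-4.80 and -2.88). Ifit2, named after its values were seen because it is the exception, rose in YYFF L4 (0.73, adjusted p = 0.000472) and YYFF L8 (0.86, adjusted p = 0.000143). Of 13 tested nucleic acid sensing genes, 4 were lower and 1 higher in WT L8, and 5 were lower and 1 higher in YYFF L8 (all tested genes: 17.7% and 18.4%, then 19.3% and 17.1%). The RNA sensors Ddx58 (-2.54 in WT L8, -2.36 in YYFF L8) and Dhx58 (at least 3.76-fold lower in WT L8) and the RNA editor Adar (-2.38 and -1.34) were among the lower ones. Dhx58 was above background only in WT L0, WT L4 and YYFF L0, so its direction was in part fixed by the filter.

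IRG proteins are tied to the autophagy machinery, which is needed for the effectors to be loaded correctly. The list read here joins autophagy genes with Trim21, Trim25 and Trafd1. Of its 14 tested genes, 4 were lower and 5 higher in WT L8, and 3 were lower and 1 higher in YYFF L8. Over all tested genes these shares were 17.7%, 18.4%, 19.3% and 17.1%. The ubiquitin ligase Trim21, which is interferon-induced, fell in WT L8 (-2.27 ± 0.16, adjusted p = 1.09e-05) and YYFF L8 (-2.51 ± 0.16, adjusted p = 3.4e-06). Atg16l1 fell in WT L8 (-1.13, adjusted p = 7.81e-05) and YYFF L8 (-0.42, adjusted p = 0.0163). Of those that were higher in WT L8, Gabarap (0.85, adjusted p = 0.000684) and Sqstm1, a cargo receptor (0.76, adjusted p = 0.00765), moved furthest. Of 7 tested dynamins, mitofusins and atlastins, which are large GTPases not known as interferon-induced, 1 was lower in YYFF L8 (19.3% of all tested genes were), Dnm2 (-0.78, adjusted p = 0.0104).

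The genes whose pattern was most like that of the tested members were Parp14, Mx2, Ccl5, Oasl2 and Trim21. They had the highest Pearson correlations, from 0.978 to 0.995 over the 12 arrays, with the mean centred log2 signal of the 6 members, among 450 other genes with an SD of at least 1. The arrays share groups and normalization, so this is a description. Mx2, a dynamin-like GTPase of the antiviral response, had group means of 9.11, 8.63 and 4.74 in WT L0, L4 and L8 and 7.91, 4.82 and 4.80 in YYFF L0, L4 and L8. The last value of each clone, and YYFF L4, were not above background. Ccl5, a chemokine, had group means of 10.36, 9.99, 5.99, 10.26, 6.15 and 6.73 in the same order.

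The genes that lie beside the members were also read, each contrast against its L0. For Igtp and Irgm2 the nearest 10 tested genes outside the families, 5 on each side, had a median change of -0.01 in WT L8 (2 lower, 2 higher), -0.25 in YYFF L4 (4 lower, 1 higher) and -0.25 in YYFF L8 (4 lower, 2 higher). For Gbp2 and Gbp3 the 10 nearest had medians of -0.03 in WT L8 (2 lower, 2 higher), 0.05 in YYFF L4 (3 lower, 1 higher) and -0.04 in YYFF L8 (3 lower, 2 higher). Around Irgm1 and Ifi47 the medians were -0.13 in WT L8 (1 lower), 0.01 in YYFF L4 (1 lower, 2 higher) and 0.15 in YYFF L8 (1 lower, 1 higher). Over all tested genes 17.7%, 17.2% and 19.3% were lower in these comparisons, and 18.4%, 14.4% and 17.1% were higher. Single neighbours moved far, with a lowest change in YYFF L8 of -5.36 beside Gbp2 and Gbp3, -4.41 beside Irgm1 and Ifi47, and -0.78 beside Igtp and Irgm2.

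Markers of cell type also differed between the groups. The summed linear signal of the 9 fibroblast markers was 14795 to 17255 in WT L0, 18588 to 18642 in WT L4 and 20011 to 20454 in WT L8. In YYFF cells it was 29579 to 29598 at L0, 28966 to 29614 at L4 and 26773 to 29265 at L8. Of 8 tested fibroblast markers, 3 were lower and 1 was higher in YYFF L4, and 1 was lower and 2 were higher in WT L8. Over all tested genes 17.2% were lower and 14.4% higher in YYFF L4, and 17.7% and 18.4% in WT L8. Pdgfra, among the lower ones in YYFF L4, changed by -3.63 there (adjusted p = 3.27e-06) and by -0.50 in WT L8 (adjusted p = 0.114). The summed signal of the 9 leukocyte markers was 281 to 289 in WT L0, 349 to 430 in WT L4 and 384 to 405 in WT L8, and 233 to 254, 532 to 563 and 603 to 684 in YYFF L0, L4 and L8, with 1 or 2 markers above background on every array. Cd14 rose by 1.96 in YYFF L8 (adjusted p = 1.38e-05), while Ptprc, Adgre1, Itgam, Lyz2, Aif1, Tyrobp and Fcer1g were above background on 0 of 12 arrays. The summed signal of 6 epithelial markers was 90.1 to 101 in WT L0, 96.4 to 100.3 in WT L4 and 100.3 to 116 in WT L8, and 82.7 to 93.4, 128 to 149 and 147 to 181 in YYFF L0, L4 and L8, with 0 to 3 markers above background on an array. Of 3 tested, 2 were higher in YYFF L4, Krt14 (adjusted p = 0.00293) and Krt8 (adjusted p = 0.0155), while Krt5, Krt18 and Cldn4 were above background on 0 of 12 arrays. Krt14 and Krt8 were above background on 4 and 5 of 12 arrays, and 2 of the 3 tested gave only a bound in that comparison. The filter may have in part fixed their direction, so their p-values are descriptions. Of 7 endothelial markers, 0 or 1 was above background on each array. The part of these markers in the fall of the GTPases was not tested.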

How the data were processed

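Bead-array intensity values and detection p-values per probe were deposited by the authors for 12 samples, with no background correction or normalization per the file headers; the exporting software was not given in the sources used here, and limma appears in the submitters' processing notes with neither role nor version. A second deposited table holds the authors' processed intensity values, in which WT L0 replicate 2 has its unnormalized values (median 87.0), so it served as an alternative only. Intensities were corrected with limma's normexp method (offset 16), which infers negative controls from the detection p-values, then quantile normalized and turned into log2 values, computed here from the deposited intensities. Of 25697 probes, 23978 had 1 gene symbol, 0 several and 1719 none; current names came from Entrez numbers (23962) or accessions (9), and 7 names were kept. Each gene was represented by its brightest detected probe (2343 genes had several). One limma model with a mean for each group (6 residual and 2.91 prior degrees of freedom) gave the contrasts, with Benjamini-Hochberg adjustment over 8891 genes and a threshold of 0.05. The number of arrays limits the precision. A probe not above background on both arrays of a group gives a bound, from the lowest signal above background on each array. The members, the gene lists and the tests were chosen with earlier results of these data known. The text names the members, the other family genes, the called list genes with the largest change from L0, a few signalling genes by name, and the 5 genes most like the members. Replicate numbers in titles and descriptions match in 3 of 6 groups and were not used as pairs. The gene-level fit was tested on simulated data with known changes in YYFF L8, read in the contrast with YYFF L0. The other contrasts and fits were not tested in this way. R 4.3.3, limma 3.58.1, Python 3.11.15, Biopython 1.88 and matplotlib 3.10.9 were used.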

Additional observations from a re-analysis of the deposited data

Results flagged for a closer look

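The following genes responded differently in the 2 clones by the interaction term of the limma fit (YYFF change minus WT change, log2 units, 2 arrays in each group). From L0 to L4 the term was -3.84 ± 0.22 (SE) for Igtp (adjusted p = 3.92e-06), -3.38 ± 0.21 for Irgm2 (7.56e-06), -2.91 ± 0.21 for Gbp3 (1.82e-05), -1.97 ± 0.22 for Gbp2 (0.000227) and -0.96 ± 0.17 for Ifi47 (0.00348). From L4 to L8 it was 4.55 ± 0.21 for Gbp3 (5.38e-06), 4.03 ± 0.22 for Igtp (1.4e-05), 3.86 ± 0.21 for Irgm2 (1.57e-05), 1.94 ± 0.22 for Gbp2 (0.000887) and 1.17 ± 0.17 for Ifi47 (0.00338). From L0 to L8 it was 1.64 ± 0.21 for Gbp3 (0.000453). Gbp3 started lower in YYFF L0 (-1.44 against WT L0) and was dim in both clones at L8, so this term includes the lower start. The Ifi47 terms rest on groups that were not above background and are fitted values. In YYFF L4 and YYFF L8, Ifi47 was above background on 0 arrays and Igtp on 1 of 2 in each, which limits what the terms from L4 to L8 can measure. Irgm2 and Gbp3 were dim in YYFF L4 (means of 6.56 and 6.03 log2 units), so falls as large as in WT cells could not have shown. The second Gbp2 probe was not above background in WT L8, YYFF L4 or YYFF L8 and gives no usable term.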

How the results depend on the processing

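The fall of Igtp, Irgm2, Gbp2 and Gbp3 in WT L8, YYFF L4 and YYFF L8 kept its direction and its call under every alternative run. The count of tested genes called in WT L4, 3 as reported, did not: it was 1 under median scaling and in a fit of every detected probe, 5 with the authors' processed values, without background correction, with offset 50 or with the stricter filter, and 0 without a filter, with the compared arrays alone or with a replicate block by the descriptions' numbers (5 at an unadjusted p under 0.05 in each of the last 3). Leaving out 1 array gave 0 to 1. The difference between clones at L8 gave 1 call, not 2, under median scaling. The L8 interaction gave 2 calls, not 1, with the mean of detected probes and with the compared arrays alone, and that of Gbp2 turned from -0.03 to 0.70 (adjusted p = 0.0121) with the mean of probes, by whose construction its second probe enters, which is below background in WT L8, YYFF L4 and YYFF L8. The replicate block by the titles' numbers left 3 calls in WT L4. Same-numbered arrays deviated together at r = 0.0248 to 0.354 by titles and -0.354 to 0.232 by descriptions, over 0.1 in 13 and in 5 of 15 pairs of groups. Since this did not hold for every pair and the labels number the arrays differently, the numbers were not taken as pairs. Over all genes, median scaling called 683 genes, not 1376, in WT L4, 2068, not 3212, in WT L8, 1789, not 2803, in YYFF L4 and 2181, not 3234, in YYFF L8. The causes of these moves were not tested. Signal over background limits Ifi47, Tgtp1, Iigp1 and the dim groups of Igtp.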
